A study of Homo sapiens with 8 samples.

Results

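The genes described here belong to the tumour necrosis factor (TNF) superfamily of ligands and the matching superfamily of receptors. They were taken from the expression table by name: every symbol that begins with TNFRSF (receptors) or TNFSF (ligands), together with FAS, CD40, LTA and LTB. This gave 37 of the 19475 entries, 14 ligands and 23 receptors. The study treated HCT116 cells, a human colorectal carcinoma line, with the bacterium Fusobacterium nucleatum or with PBS, to ask how the bacterium alters N6-methyladenosine (m6A), a methyl modification of mRNA. Control cells received PBS, and treated cells, labelled FUSO, received 100 bacteria per cell for 2 h. In both groups poly(A) RNA was fragmented, and the fragments bound by an antibody against m6A (IP) were sequenced beside the unselected fragments (input), with 2 libraries of each kind in each group. All libraries came from 1 cell line, and the methods of the study call the 2 libraries of a group biological replicates. Neither they nor the labels say whether these were separate cultures, so p-values measure the spread between these libraries.

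Ligands of the TNF superfamily are mostly membrane-bound or secreted trimers, and each engages one or a few receptors on the same or a neighbouring cell. Receptors with an intracellular death domain can assemble a caspase-activating complex through the adaptor FADD, whereas the others bind TRAF adaptors that lead to the IKK kinases and NF-kB. Decoy receptors bind a ligand without passing on a full signal. In the gut epithelium the death receptors for TRAIL and FAS ligand set the response of cells to immune attack, and several other receptors of the family are better known from lymphocytes.

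The deposited FPKM values (fragments scaled by transcript length and by the mapped total of the library) came from the 4 input libraries. Estimated from the steps between low values, the depth of Control 2 was 1.116 times that of Control 1, that of FUSO 1 was 1.237 times and that of FUSO 2 was 0.915 times, and the absolute depth was unknown. All 6 epithelial markers passed a mean of 1 FPKM, at unlike levels. EPCAM lay between 161.8 and 184.1 FPKM and KRT8 between 1941 and 2286 FPKM. KRT18 lay between 1071 and 1462 FPKM and KRT19 between 1144 and 1233 FPKM. CDH1 was lower, with 11.92 to 13.63 FPKM, and KRT20 was near the filter, with 1.231 to 1.317 FPKM. None of 8 lymphoid and myeloid markers passed a mean of 1 FPKM, the highest value was 0.2155 FPKM for CD14, and CD3D, CD3E and MS4A1 were listed at 0 in all libraries. Of 6 stromal and endothelial markers, COL1A1 alone passed this level (4.514 and 3.775 FPKM in Control, 5.722 and 5.052 FPKM in FUSO), and COL1A2 and DCN were listed at 0. In input RNA from many cells, fewer cells that express a gene and less of its RNA per cell cannot be told apart.

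The m6A peak lists gave, for each replicate, stretches enriched in IP over input with a p-value before correction. Peaks of the 4 lists that shared at least 1 bp of exon on the same strand were merged into regions. The 37 genes held 25 of the 22001 regions, in 18 genes, and 19 of the 25 regions had a peak in all 4 lists. The m6A methyltransferase acts on adenosines in a short consensus whose best-known form is GGAC. To show the letters that these peaks cover, the GGAC nearest the middle of the bases shared by all 4 lists is printed with its flanks for a set of the genes described below, in the direction of the mRNA. Capitals mark GGAC, the methyl mark would sit on its A, and coordinates are on GRCh37 (hg19).
TNFRSF12A (chr16:3072222-3072242, plus strand, 3′UTR): ggggttagGGACctattttta
TNFRSF1A (chr12:6438221-6438241, minus strand, 3′UTR): aggatgagGGACgctatgcct
TNFRSF18 (chr1:1138959-1138979, minus strand, 3′UTR): gggtcttaGGACgggaggctg
FAS (chr10:90774139-90774159, plus strand, coding sequence): atcctcaaGGACattactagt
TNFSF9 (chr19:6535010-6535030, plus strand, coding sequence): cagtcttgGGACtcttccggg
TNFSF18 (chr1:173010594-173010614, minus strand, coding sequence): catgttggGGACaccatagac
TNFSF4 (chr1:173155587-173155607, minus strand, 3′UTR): ctgggggtGGACagggcatgg
TNFRSF13C (chr22:42321252-42321272, minus strand, 3′UTR): tctttctgGGACcaggctaac

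The motif was searched on the mRNA strand only. It was present in 18 of the 19 regions found in all 4 lists, beside 91.7% of the 8327 such regions of any gene with a length in the same range (329 to 1224 nt), so the share in TNF superfamily genes was near that of all regions. The exception was CD40, whose region held no GGAC. In TNFRSF25 the region held 2 copies, but none in the 210 nt shared by all lists, and in TNFRSF10D the region held 1 copy, outside the 391 nt shared by all lists. For CD40 and TNFRSF25 the wider consensus is printed, in capitals: an AC preceded by a purine, with any base but C before that purine and any base but G after the C. It has 11 matches in the 653 nt shared by the CD40 peaks, 2 in the shared part of TNFRSF25 and 5 in that of TNFRSF10D, and almost every region of this length holds it (100% to 3 digits). A match says nothing about whether that base carries the mark.
CD40 (chr20:44757772-44757792, plus strand, 3′UTR): gctggcacTGACTgggcatag
TNFRSF25 (chr1:6521408-6521428, minus strand, 3′UTR): atgcgtgtAGACAttttatgt

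The first question was which of these genes the epithelial line expressed. At least 1 FPKM in every input library was reached by 16 of the 37 genes, 4 of 14 ligands and 12 of 23 receptors, beside 54.9% of all entries of the table. A further gene, TNFRSF13C, which encodes the BAFF receptor, had a mean above 1 FPKM with one library below it, so that 17 genes passed the filter of the expression test. Of the other 20 genes, 15 stayed below 0.1 FPKM in every library, and these include 5 that were listed at 0 throughout (LTB, TNFRSF13B, TNFSF11, TNFSF14 and TNFSF8). The remaining 5 reached up to 1.151 FPKM.

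TNFRSF12A and TNFRSF6B held most of the signal, and the comparison between genes is made here on FPKM, which are per length. TNFRSF12A, the receptor for TWEAK, had 209.4 and 188.7 FPKM in Control and 211.6 and 224.3 FPKM in FUSO libraries, which ranked 278 in the table by mean and made up 38.3% of the summed FPKM of all 37 genes. TNFRSF6B, the soluble decoy receptor DcR3 that binds FAS ligand, LIGHT and TL1A, had 117.6 and 121.9 FPKM in Control and 139.7 and 138.0 FPKM in FUSO libraries, which ranked 498 and made up 23.8%. The libraries of these genes overlapped neither with each other nor with those of any other superfamily gene named here.

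The next levels belonged to the TRAIL receptors and to TNFRSF1A and TNFRSF18. TNFRSF10D, a TRAIL decoy receptor with a truncated death domain, ranged from 27.59 to 36.63 FPKM, and TNFRSF10B, the death receptor DR5, from 24.71 to 29.81 FPKM. TNFRSF1A, the death domain receptor for TNF, ranged from 23.76 to 28.48 FPKM, and TNFRSF18, the co-stimulatory receptor GITR, from 23.98 to 27.14 FPKM. TNFRSF10D was above the other 3 in each library, although its range over all libraries overlapped those of TNFRSF10B and TNFRSF1A. The order of TNFRSF10B, TNFRSF1A and TNFRSF18 varied from library to library. TNFRSF21, the death receptor DR6, ranged from 18.18 to 21.39 FPKM and TNFRSF10A, the death receptor DR4, from 15.31 to 18.45 FPKM, again with overlap. The glycolipid-anchored decoy TNFRSF10C lay between 1.831 and 2.702 FPKM, below the other 3 TRAIL receptors in every library.

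Lower levels were found for the remaining receptors. CD40, which activates NF-kB in antigen-presenting and some epithelial cells, ranged from 10.51 to 12.88 FPKM, and TNFRSF25, the death receptor DR3, from 8.422 to 12.22 FPKM. FAS, the receptor for FAS ligand, ranged from 4.202 to 5.487 FPKM and did not overlap with either of them. Among the ligands, TNFSF9 (4-1BB ligand) was highest with 13.28 to 16.39 FPKM, followed by TNFSF12 (TWEAK), the ligand of TNFRSF12A, with 3.693 to 5.694 FPKM. TNFSF18 (GITR ligand) and TNFSF4 (OX40 ligand) lay between 1.403 and 2.575 FPKM. The receptors of TNFSF9 and TNFSF4, TNFRSF9 and TNFRSF4, stayed at or below 0.06414 and 0.06386 FPKM, whereas both members of the TWEAK pair and of the GITR pair were above 1 FPKM in all libraries.

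The ligands of the TRAIL receptors, of TNFRSF1A and of FAS were near or at 0. TNFSF10, which encodes TRAIL, was listed at 0.02901 FPKM in Control 1 and at 0 in the other libraries, and TNF and FASLG, named outside the rule, reached at most 0.0141 FPKM in 1 library and 0 respectively. LTA was listed at 0.006909 FPKM in FUSO 2 alone. The plot of FPKM by library shows these levels for the 17 tested genes.

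**Figure D1:**
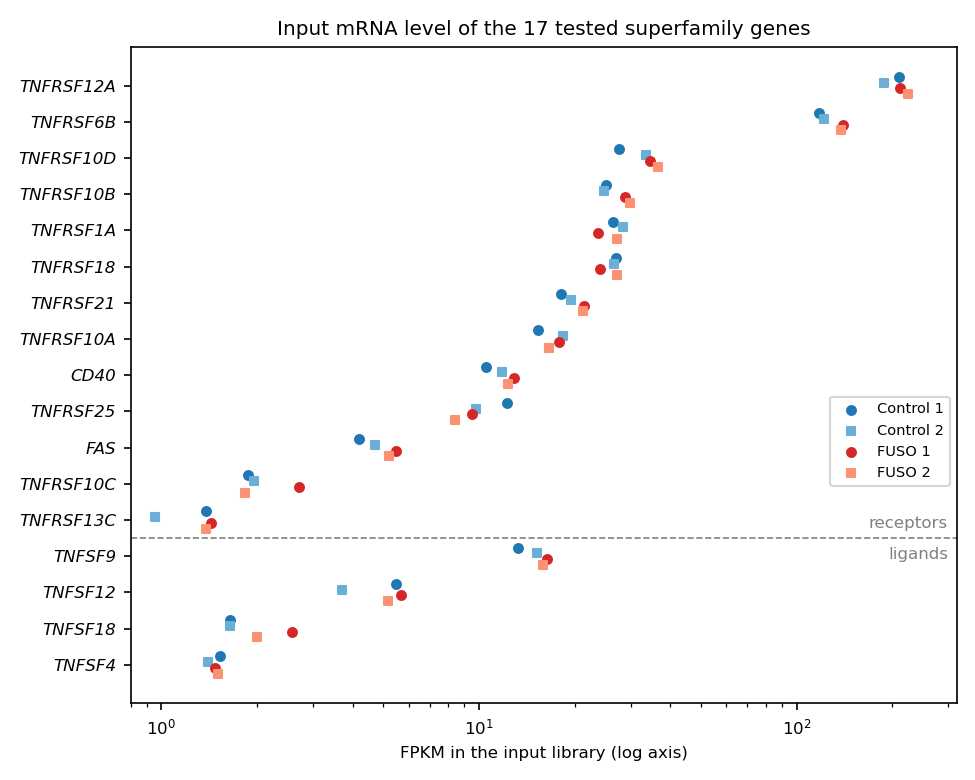
FPKM (log axis) of the 17 superfamily genes that passed the filter, ligands and receptors apart, with 1 point for each of the 4 input libraries. TNFRSF12A (188.7 to 224.3 FPKM) and TNFRSF6B (117.6 to 139.7 FPKM) stand above all others, and Control and FUSO points lie close together for every gene.

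The second question was whether the bacterium changed the mRNA of these genes. In limma on log2(FPKM + 1), with Benjamini-Hochberg adjustment over the 11088 genes tested, 0 of the 17 genes were called at an adjusted p under 0.05. Over all genes tested, 74 were called higher (0.667%) and 15 lower (0.135%). Before adjustment, 4 of the 17 genes passed 0.05 in limma, all higher in FUSO, where 7.04% of all genes passed as higher and 6.45% as lower. The median log2 fold change of the 17 genes was 0.16, beside 0.01 for all genes tested. Of the 17 estimates 14 were above 0, beside 5992 of all 11088, and the genes share the same libraries. Both FUSO libraries exceeded both Control libraries in 9 of the 17 genes (26.1% of all genes), and the reverse held in 1, TNFRSF25 (21.1% of all genes). No other test was run on these values, and no alternative setting called any of the 37 genes.

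The 4 genes at an unadjusted p under 0.05 were TNFRSF6B, TNFRSF10B, TNFRSF21 and TNFSF18. For TNFRSF6B the values given above did not overlap between groups, and the mean was 119.7 ± 3.041 FPKM (SD, n = 2) in Control and 138.9 ± 1.172 FPKM in FUSO. Its log2 fold change was 0.21 with a 95% confidence interval from 0.08 to 0.34 (limma adjusted p = 0.224). TNFRSF10B had 25.16 and 24.71 FPKM in Control and 28.84 and 29.81 FPKM in FUSO, with a log2 fold change of 0.23 (0.07 to 0.38, limma adjusted p = 0.25). Its FUSO libraries were both higher, by more than the gap within either group.

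TNFRSF21 had 18.18 and 19.47 FPKM in Control and 21.39 and 21.31 FPKM in FUSO, with a log2 fold change of 0.17 (0.01 to 0.34, limma adjusted p = 0.361). TNFSF18 had 1.649 and 1.643 FPKM in Control and 2.575 and 1.998 FPKM in FUSO, with a log2 fold change of 0.31 (0.02 to 0.60, limma adjusted p = 0.356). The groups did not overlap for either gene, but for TNFSF18 the FUSO libraries lay further apart than the nearest pair across groups. The count of 4 rested on single libraries: without FUSO 1 it was 0, without FUSO 2 it was 2, and without Control 2 it was 8. The count over all 11088 genes moved the same way, from 1496 to 707, 801 and 2341.

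FAS had 4.202 and 4.7 FPKM in Control and 5.487 and 5.205 FPKM in FUSO, with a log2 fold change of 0.22 (-0.00 to 0.44, limma adjusted p = 0.375). TNFRSF12A had a log2 fold change of 0.13 (-0.04 to 0.31, limma adjusted p = 0.462). In both genes, and in TNFRSF10D, CD40 and TNFSF9, the FUSO libraries were the higher ones without overlap. The log2 fold changes of the last 3 were 0.22, 0.16 and 0.17, with limma adjusted p-values of 0.415, 0.454 and 0.431.

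Of the 17 genes, TNFRSF25 alone had both FUSO libraries below both Control libraries. It had 12.22 and 9.79 FPKM in Control and 9.52 and 8.422 FPKM in FUSO, with a log2 fold change of -0.26 (-0.57 to 0.04, limma adjusted p = 0.415). Its exons overlap those of ESPN on the other strand by 383 nt, and since the sources do not say whether counting used strand, reads of the pair cannot be told apart there. The same holds for FAS and ACTA2 (380 nt) and for TNFRSF10B and RHOBTB2 (377 nt).

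The groups overlapped for the other 7 genes. The estimates of TNFRSF1A (-0.10) and TNFRSF18 (-0.07) were below 0, and those of TNFRSF10A (0.03), TNFRSF10C (0.15), TNFRSF13C (0.16), TNFSF12 (0.22) and TNFSF4 (0.01) above it, all on the log2 scale. The widest 95% interval was that of TNFSF12, from -0.19 to 0.63, and the plot of fold changes gives all of them. For the 17 genes the highest upper bound of an interval was 0.63 and the lowest lower bound -0.57. In this fit a change of 1 on the log2(FPKM + 1) scale therefore lay outside the interval of every gene. On that scale a rise of 1 is more than a doubling of FPKM, most so in low genes. With a pseudocount of 0.1 FPKM the estimate of TNFSF18 was 0.44, beside 0.31 in the main fit.

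**Figure D2:**
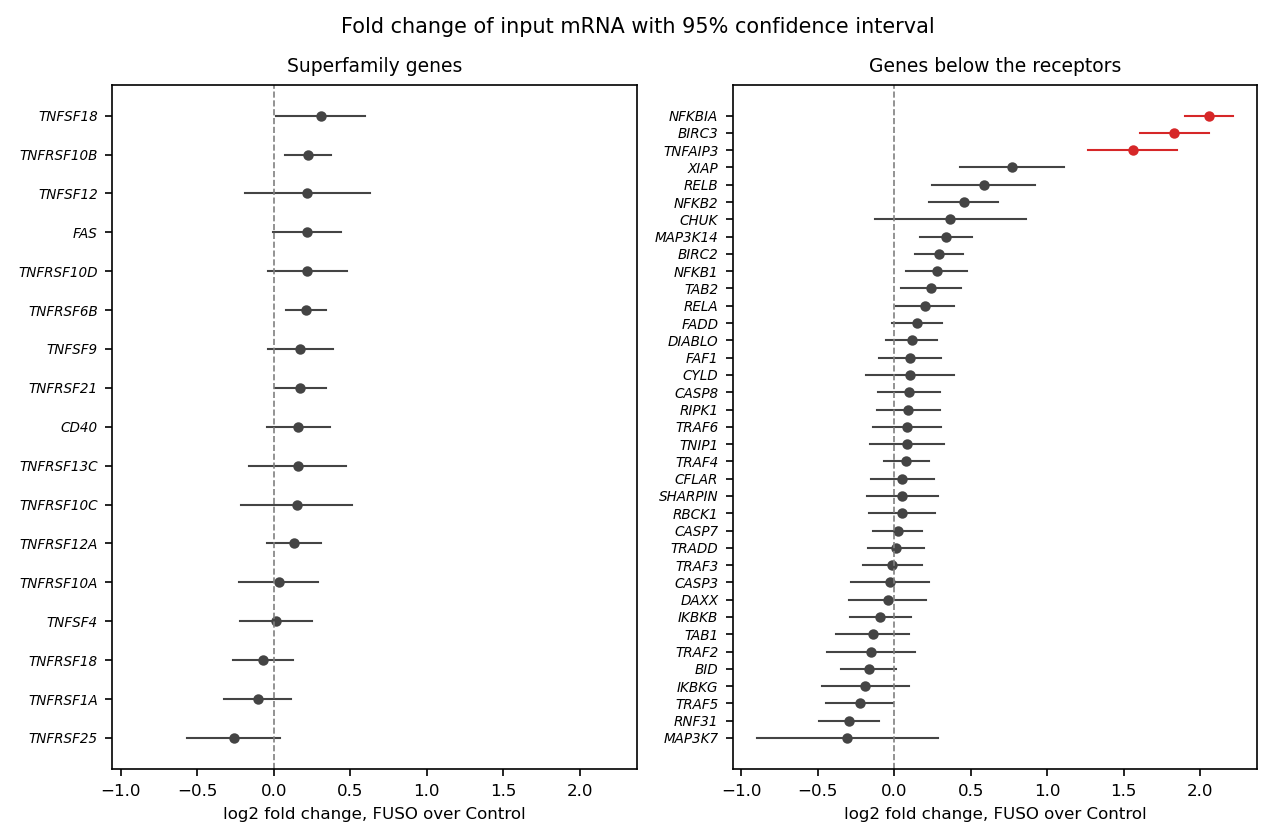
Log2 fold change of FUSO against Control input with its 95% confidence interval from limma, for the 17 tested superfamily genes and for the genes of the signalling lists (axis in log2 units of FPKM + 1). The superfamily genes lie between -0.26 and 0.31, and the 3 called genes, NFKBIA, BIRC3 and TNFAIP3, are coloured in red.

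The genes below the filter are given by level. TNFRSF11A, which encodes RANK, had 0.596 and 0.4605 FPKM in Control and 0.479 and 0.5618 FPKM in FUSO, and TNFRSF19 (TROY) had 0.2504 and 0.3405 against 0.4188 and 0.4783 FPKM. TNFSF13B (BAFF) reached 0.1435 FPKM, TNFRSF1B (the second TNF receptor) 0.09221 FPKM, TNFRSF8 (CD30) 0.08085 FPKM and TNFRSF9 0.06414 FPKM. All 6 lay below 1 FPKM in every library, and no fold change is given for them.

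TNFSF13 (APRIL) and the TNFSF12-TNFSF13 readthrough share 1263 nt of exon on the same strand, and 69.1% of the 50-nt words of TNFSF13 also occur in the readthrough. TNFSF13 had 0.9569, 0.8916, 0.03307 and 1.151 FPKM in Control 1, Control 2, FUSO 1 and FUSO 2, and the readthrough had 0.1472, 0, 1.141 and 0 FPKM. The one low value of TNFSF13 stood in the library where the readthrough was high, and the sums of both were 1.104, 0.8916, 1.174 and 1.151 FPKM. Each entry taken alone is therefore uncertain. TNFSF12 shares 553 nt of exon with the readthrough and is uncertain by the same measure (38% of its 50-nt words). The 4 TRAIL receptors, which lie side by side on chromosome 8, share no 50-nt word with each other. TNFRSF10C does share 261 and 249 nt of exon on the same strand with other annotated genes outside the superfamily rule.

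Superfamily genes that carry other symbols were examined beside them. Of 11 such genes 4 were tested and 0 were called by limma. Before adjustment 3 had a p under 0.05, beside 13.5% of all genes tested. Of these 3, EDA had a Control mean of 0.9857 FPKM and passed the filter through the FUSO libraries, where it was higher. LTBR, the lymphotoxin beta receptor, had 61.25 and 57.16 FPKM in Control and 44.5 and 47.4 FPKM in FUSO, with a log2 fold change of -0.36 (-0.53 to -0.19, limma adjusted p = 0.137). NGFR, the low-affinity neurotrophin receptor, had 3.962 and 3.732 against 5.053 and 5.608 FPKM, a log2 fold change of 0.38 (limma adjusted p = 0.21). The libraries of the 2 groups did not overlap for either gene, nor for EDA (0.26, limma adjusted p = 0.353) and RELT (-0.15, limma adjusted p = 0.429). Over all genes tested, both FUSO libraries exceeded both Control libraries in 26.1%, and the reverse held in 21.1%. Without Control 2, limma called LTBR lower (adjusted p = 0.0437). Of the 7 genes not tested, CD70 reached 0.2407 FPKM, CD27 0.1596 FPKM, EDAR 0.08055 FPKM and EDA2R 0.07451 FPKM, and FASLG and CD40LG were listed at 0 in all libraries.

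Downstream of the receptors, NFKBIA, BIRC3 and TNFAIP3 of the TRAF and IKK arm rose. Of 26 adaptors, ligases, kinases and NF-kB genes in this list 25 were tested. Limma called 3 higher and 0 lower, beside 0.667% and 0.135% of all genes. The list was chosen with earlier results of these data known, so its count beside these shares is no evidence of an excess. NFKBIA, the inhibitor that NF-kB itself induces, had 19.57 and 20.69 FPKM in Control and 84.76 and 89.13 FPKM in FUSO (log2 fold change 2.06, limma adjusted p = 0.000524). BIRC3, the ubiquitin ligase cIAP2 that binds TRAF2, had 0.4286 and 0.449 against 4.169 and 4.079 FPKM (1.83, adjusted p = 0.00183). TNFAIP3, the deubiquitinase A20, had 0.8158 and 0.8385 against 3.929 and 4.892 FPKM (1.56, adjusted p = 0.00852). In each of the 3 the FUSO libraries were several times the Control libraries, whereas the median of the list was 0.09. Without FUSO 2, TNFAIP3 was not called (limma adjusted p = 0.0907), and without Control 1 NFKB2, an NF-kB subunit, was called higher as well (0.0391). BIRC3 and TNFAIP3 were below 1 FPKM in both Control libraries and passed the filter through the FUSO libraries, where they were high. With no filter their limma adjusted p-values were 0.00838 and 0.0431. With a pseudocount of 0.1 FPKM the log2 fold change of BIRC3 was 2.97. Before adjustment, 12 genes of the list passed 0.05, the 3 called ones included, of which 10 were higher, beside 13.5% of all genes in either direction.

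The death receptor signalling list showed no call, and the difference between the lists was not tested. Of its 13 genes 12 were tested, and 0 were called by limma. Before adjustment 1 had a p under 0.05, beside 13.5% of all genes tested, and the median log2 fold change was 0.07. XIAP, a caspase inhibitor, had 0.7389 and 1.177 FPKM in Control and 2.208 and 2.446 FPKM in FUSO (log2 fold change 0.77, limma adjusted p = 0.123), and limma called it higher without Control 2 (adjusted p = 0.0277). With a pseudocount of 0.1 FPKM its log2 fold change was 1.23. The Control mean of XIAP was 0.9577 FPKM, so it passed the filter through the FUSO libraries, where it was high. With no filter its limma adjusted p was 0.223. BID, which links caspase 8 to mitochondria, came next with 20.77 and 22.77 against 19.22 and 19.3 FPKM (-0.17, adjusted p = 0.39). The adaptor FADD lay between 15.12 and 17.4 FPKM and CASP8, the caspase it recruits, between 4.512 and 5.052 FPKM.

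The third question was which of these mRNAs carried m6A peaks. Of the 17 tested genes, 16 had a region in all 4 lists, beside 67.2% of all genes tested. The exception was TNFRSF6B, the second most abundant of them. No peak of any list lay over the exons of the gene (chr20:62328005-62330037, GRCh37) on either strand, although its 1140-nt transcript holds 6 GGAC. It was not alone in this: 32.2% of the 658 tested genes at a mean of 100 FPKM or more had no peak, and 22.7% of the 821 genes within 2-fold of its mean. An annotated RTEL1-TNFRSF6B readthrough covers all 1140 nt of TNFRSF6B on the same strand. The table lists no entry for it, and RTEL1 itself had 14.22 and 13.34 FPKM in Control and 12.53 and 11.25 FPKM in FUSO.

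Among the genes below the filter, TNFRSF11A and TNFRSF19 had a peak, and 20.4% of all genes above 0 and below a mean of 1 FPKM had one. No region of these genes was lost, meaning present in both Control lists and in neither FUSO list (2.64% of all regions). A single region was gained, the reverse case (2.38% of all regions), and 5 other regions were found in 1 or 2 lists without following the groups. Over all regions, 51.5% had a peak in all 4 lists, against 76% here.

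The gained region lay in the coding sequence of TNFRSF11A (chr18:60036278-60036397, plus strand, GRCh37). It had p-values of 0.0013 in FUSO 1 and 0.005 in FUSO 2, among the weakest peaks of the superfamily, in a gene between 0.4605 and 0.596 FPKM in all libraries. It was no longer present when peaks were limited to a p of at most 1e-05, where the region of TNFRSF10C was gained instead. The 61 nt shared by both its peaks held 2 GGAC, of which one is printed.
TNFRSF11A (chr18:60036371-60036391, plus strand, coding sequence): cctgtgcaGGACtgattggac

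In most of these genes the merged regions reached the stop codon. In 15 of the 16 genes with a region in all lists (93.8%), a region covered the stop codon, beside 67.4% of the 7535 genes placed in the same way, and in 11 genes a peak of every list did so. The exception was TNFSF12, whose peaks lay in the 3′UTR. By the midpoint of each region, 7 lay in the 3′UTR, 6 within 100 nt of the stop codon and 5 in the coding sequence. The 19th, at the first exon of TNFRSF10B, reached beyond the annotated start of the gene and could not be placed. Of all 9362 placed regions, 34.7% lay in the 3′UTR, 19.2% at the stop codon and 44% in the coding sequence.

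TNFRSF12A had the lowest p-value of the 37 genes in each list. Its region (chr16:3071595-3072383, 708 nt) had a p-value of 1e-133 in either Control list, of 1e-178 in FUSO 1 and of 1e-144 in FUSO 2. The peaks were 590 to 679 nt long on a transcript of 977 nt and reached to at most 1 nt from its end in 3 lists, so most of the short 3′UTR printed from above was covered. In TNFRSF10B the region at the stop codon reached 1.6e-80 and 7.9e-94 in Control and 1e-139 and 3.2e-89 in FUSO. The weakest region found in all lists was that of TNFSF12 (0.0012 and 0.0027 in Control, 6.9e-05 and 8.5e-05 in FUSO). No base of it was shared by all 4 peaks. The FUSO 2 peak, at positions 217 to 394 relative to the stop codon, overlapped neither Control peak. It was joined to them through the FUSO 1 peak (40 to 247).

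TNFRSF21 was the only one of the 37 genes with 3 regions in all lists. One lay in the coding sequence (chr6:47221235-47277205, 4 exon blocks and 1224 nt), one across the stop codon (chr6:47200308-47202579) and one near the end of the 3′UTR (chr6:47199263-47199770), all on the minus strand. The p-values of the first ran from 3.2e-77 to 3.2e-50, of the second from 1.6e-76 to 1.6e-49 and of the third from 1.6e-20 to 1.3e-12. The groups overlapped in all 3. The GGAC nearest the middle of each follow, in the order of the mRNA.
TNFRSF21, coding sequence (chr6:47253808-47253828, minus strand): caagccggGGACcaaggagac
TNFRSF21, region at the stop codon (chr6:47200525-47200545, minus strand): accctcctGGACtctgtttat
TNFRSF21, 3′UTR (chr6:47199360-47199380, minus strand): ggtggcgtGGACtccctttgt

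The peak lists hold no fold enrichment, and the p-value of a peak depends on the depth of its library and the level of its mRNA as well as on methylation, so the order of p-values between groups is given as a description. In 12 of the 19 regions the groups overlapped. Both Control p-values were lower than both FUSO p-values in 3 regions (18.9% of all regions in the 4 lists), and the reverse held in 4 (15.7%). Neither count lies far from the share over all regions.

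The 3 regions with lower p-values in Control were those of TNFRSF1A, TNFRSF18 and TNFRSF25, and in the same 3 both Control peaks were also longer than both FUSO peaks (17.3% of all regions). TNFRSF1A (chr12:6437923-6439027, minus strand) had 6.3e-94 and 2.5e-83 in Control and 2e-43 and 2e-38 in FUSO. Its peaks spanned 950 nt in both Control lists and 802 nt in both FUSO lists, and all ended at the last base of the transcript. The difference was at the 5′ side, where the Control peaks began at position -392 and the FUSO peaks at -244 relative to the stop codon.

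TNFRSF18 (chr1:1138888-1139248, minus strand) had 7.9e-17 and 1.3e-20 in Control and 5.8e-10 and 5.9e-10 in FUSO, with peaks of 361 and 271 nt against 181 and 181 nt. All 4 peaks ended at the last base of the transcript, and only that of Control 1 reached the stop codon. TNFRSF25 (chr1:6521214-6521752, minus strand) had 4e-22 and 6.3e-18 in Control and 7.9e-11 and 1.8e-08 in FUSO, with peaks of 270 and 539 nt against 240 and 240 nt. The mRNA of TNFRSF25 was also lower in both FUSO libraries, whereas that of TNFRSF1A and TNFRSF18 overlapped between groups. The part of mRNA level in these orders was not tested.

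The 4 regions with lower p-values in FUSO were those of FAS, TNFRSF12A, TNFRSF10C and TNFSF12. The mRNA of FAS and TNFRSF12A was also higher in both FUSO libraries, whereas that of TNFRSF10C and TNFSF12 overlapped between groups. In TNFSF12 the peaks compared lay partly on different bases, as given above. FAS (chr10:90771816-90774277, plus strand) had 1.3e-17 and 1.3e-24 in Control and 5e-36 and 5e-25 in FUSO, with peaks of 300 and 360 nt against 420 and 390 nt. The values of Control 2 and FUSO 2 were close, and FUSO 1 stood apart. TNFRSF10C had 0.0001 and 1.9e-05 against 2.3e-07 and 1.4e-08. Longer peaks in both FUSO lists were found in FAS, TNFSF12, CD40 and the region of TNFRSF21 at the stop codon (13.7% of all regions). Of these genes, FAS, CD40 and TNFRSF21 also had higher mRNA in both FUSO libraries. The part of mRNA level in these orders and lengths was not tested. CD40 (chr20:44756760-44758236, plus strand) had peaks of 683 and 653 nt in Control and 831 and 832 nt in FUSO, while its p-values overlapped (6.3e-52 and 3.2e-42 against 1.6e-50 and 7.9e-42).

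The median GC content of the regions differed between these orders, and their ranges overlapped. The 3 regions with lower p-values in Control had 60.6% to 69.3% GC (median 62.3%), and the 4 with lower p-values in FUSO had 35.1% to 62% GC (median 56.8%). Over all regions with the same orders the medians were 57% and 47%. Across the 19 regions, GC content and the difference in -log10 p (FUSO minus Control) had a Spearman correlation of -0.33 and a Pearson correlation of -0.29, beside a Spearman correlation of -0.27 over all regions found in the 4 lists. The points share their libraries, and the part of GC-dependent recovery in the orders was not tested.

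In the 26 genes of the TRAF and IKK arm, BIRC3 had a gained region and NFKBIA and TRAF1 each had a lost region. Of all 19475 entries of the table, 482 had a gained and 523 a lost region. These entries include 3780 listed at 0 in all input libraries, whereas 25 of the 26 genes of the list were tested. A share over tested genes alone was not computed, and the list was chosen with earlier results of these data known. NFKBIA also had a region in all 4 lists. BIRC3 and NFKBIA had mRNA that rose, that of BIRC3 from 0.4286 and 0.449 FPKM in Control. The part of mRNA level in these regions was not tested. TRAF1 (0.7429 and 0.4563 FPKM in Control, 0.6445 and 0.6582 FPKM in FUSO) was below the filter. None of the 13 genes of the death receptor list and none of the 11 superfamily genes under other symbols had a lost or gained region.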

How the data were processed

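Poly(A) RNA of HCT116 cells was sequenced as input and m6A IP, with 2 libraries per group. Per the labels, the authors used Trim Galore 0.3.3, HISAT2 2.1.0 (hg19) and StringTie. The deposited expression values were FPKM of the 4 input libraries, scaled by the authors for length and depth but not for GC content. Each deposited peak list gave 1 p-value per peak, read as the authors' value before correction. The study's methods name MACS2, whereas the exon blocks of the lists are a layout of exomePeak, and the program was not settled. Whether counting used strand is not given in the sources used here. Groups and replicate numbers came from the sample labels. The deviations of same-numbered libraries from their group means had a correlation of 0.024 over 11088 genes, so the numbers did not pair the libraries. No pair of libraries held identical values.

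Genes whose mean over the input libraries reached 1 FPKM were tested with limma 3.58.1 in R 4.3.3 (eBayes with trend) on log2(FPKM + 1), a scale that understates changes of low genes. A gene was called when its p, adjusted after Benjamini-Hochberg over all genes tested, was under 0.05. FPKM are not counts, so no count model was used. Peaks were joined to genes by their listed name (88 of 88 lay on that gene), and placed on canonical transcripts of GENCODE release 44 mapped to GRCh37 when at least 90% of their bases lay there (FAS on the transcript with the longest coding sequence). The midpoint set the class. Other steps ran in Python 3.11.15 with pysam 0.24.0. The scripts were tested on simulated data.

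Alternatives were a pseudocount of 0.1 FPKM, no filter, quantile normalization, no trend, a replicate block, a GC correction, each library left out, expression thresholds of 0.5 and 2 FPKM, peaks with a p of at most 1e-05, a reciprocal overlap of 50%, and a join by exon overlap. The genes and lists were chosen with earlier results of these data known. Every superfamily gene that passed the filter or had a peak is named, with the 6 highest of the others. Of the signalling lists, the called genes are named or, with fewer than 2 called, up to 2 with the lowest p. FADD, CASP8, TRAF1, NFKB2, TNFRSF4, TNFSF10, LTA, RTEL1 and the genes listed at 0 were named after their values were seen.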

Additional observations from a re-analysis of the deposited data

How the results depend on the processing

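None of the 37 genes was called under any of the 10 alternatives to the expression test, and the lowest adjusted p of any of them was 0.0686 (without Control 2). Of the 170 alternative fold changes of the 17 genes, 162 kept their direction and 8 reversed, none of them called. On the log2 scale TNFSF4 was at -0.052 with quantile normalization and -0.025 with GC correction. The other reversals came with 1 library left out, where TNFRSF10A ranged from -0.094 (without Control 1; -0.017 without FUSO 1) to 0.16, TNFRSF10C from -0.043 (without FUSO 1) to 0.34, TNFRSF18 from -0.15 to 0.018 (without FUSO 1), TNFSF12 from -0.013 (without Control 2) to 0.45 and TNFSF4 from -0.022 (without Control 2) to 0.052. With a replicate block, 75 genes of the table were called higher and 15 lower, and 5 superfamily genes had an unadjusted p under 0.05. No call of a named gene changed. The counts over all genes moved more: without the filter 35 were higher and 5 lower, without trend 9 were lower, and with 1 library left out 13 to 185 were higher and 3 to 99 lower. In the same settings 0 to 1 genes of the other-symbol list were lower (LTBR without Control 2) and 0 to 1 of the death receptor list higher (XIAP without Control 2). With 1 peak list left out, superfamily genes had 0 to 2 lost and 1 to 3 gained regions, and all genes 945 to 2403 lost and 917 to 2403 gained. At a p of at most 1e-05, 349 regions were lost and 303 gained, and with reciprocal overlap 822 were gained. The cause was not tested, except that fewer lists make the lost and gained classes easier to meet. With 2 libraries per group and unknown depth, small changes of low genes were not detectable.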
